A study of Homo sapiens with 4 samples.

Results

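CYP1B1, ZIC2, RAI2, RTN1, CSTA, COXFA4L3, SLC16A14, CA2, RCAN2 and LIPG are 10 genes that were high in one line and low in the other of each telomere length, so that long and short telomeres differed in opposite directions without and with Cre. They were chosen from the measured values themselves, as genes high in LhTERTL and mock/cre+ and low in mock and LhTERTL/cre+. The 10 genes stand among 19775 genes with a probe set (a group of array probes read as 1 value) annotated with 1 symbol. They were read by 14 probe sets, 4 for CYP1B1, 2 for RTN1 and 1 for each of the other 8 genes. Because these values made the choice, the differences between the high and low lines are given as a description, with no test.

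RNA came from 4 derivatives of PC-3, an established human line that came from a bone metastasis of a prostate carcinoma, measured on 1 oligonucleotide array per line, after growth in dishes with no further treatment. The line mock had short telomeres and basal hTERT, and mock/cre+ had the same telomere and hTERT status. LhTERTL had long telomeres and overexpressed hTERT (gene TERT), the catalytic subunit of telomerase. LhTERTL/cre+ had long telomeres and basal hTERT, and the series' design text describes it as elongated cells without the exogenous enzyme. The suffix cre+ is taken here as exposure to Cre, a recombinase that cuts DNA between marker sites, and the labels do not state how many clones a line held or how long it was grown after Cre. With 1 array per line, a difference between 2 lines has no replicate check, and differences between clones, cultures and conditions cannot be told apart.

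The deposited log2 values were centred on the median of the 4 arrays for each probe set. A value of 0 is therefore the middle of the 4 arrays and not an absent transcript, only differences between lines carry meaning, and the level of a gene cannot be set against that of another. For the same reason the epithelial identity of the line could not be checked from marker levels. One TERT probe set read 3.54 in LhTERTL, the line labelled with overexpressed hTERT, and -0.16 to 0.12 elsewhere, whereas the second TERT probe set read -0.66 in LhTERTL. The centred values also differed in spread, with SDs over all probe sets of 0.335 in LhTERTL and 0.254 in mock/cre+, the lines in which the 10 genes were high, against 0.209 in mock and 0.179 in LhTERTL/cre+. Such an SD measures how far a line departs from the middle of the 4 arrays, and not the spread of the array before centring. Quantile normalization of the centred values, which gives these departures 1 shared distribution, changed the number of probe sets with a 2-fold opposite difference in both pairs from 322 to 324. It cannot check the normalization done before centring. In the authors' deposited list of lower probe sets, the columns headed LhTERTL and mock/cre+ held each other's values as the series table gives them, for every probe set in it within 1e-05, whereas the list of higher probe sets matched the table. With these labels exchanged in the series table, the TERT values of 3.54 and -0.66 would stand under mock/cre+, the line labelled with basal hTERT. Which labels are right was not tested further. Exchanging these labels would leave the same lines high and low for the 10 genes and keep the direction of both Cre-matched differences. It would swap which line is highest in all 10 genes and change the sign of the mean long minus short difference in 8 of them, for example from 1.09 to -0.89 for CYP1B1, from 0.86 to -1.03 for ZIC2 and from -0.48 to 0.86 for CA2.

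The 10 genes have separate textbook roles. CYP1B1 is a cytochrome P450 that oxidises estradiol and polycyclic aromatic hydrocarbons, and its transcription is a textbook target of the aryl hydrocarbon receptor, AHR. ZIC2 is a zinc finger transcription factor of forebrain development, and RAI2 is a co-regulator first found as a retinoic acid induced gene. RTN1 shapes membranes of the endoplasmic reticulum and is best known from neurons and neuroendocrine cells. CSTA (cystatin A) inhibits cysteine proteases in epithelia, COXFA4L3 is a mitochondrial protein related to a subunit of cytochrome c oxidase, and CA2 hydrates carbon dioxide. RCAN2 binds and regulates the phosphatase calcineurin, LIPG is endothelial lipase, which cleaves phospholipids of lipoproteins, and SLC16A14 belongs to the monocarboxylate transporter family.

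Promoter sequence was examined because it is a feature that the choice of genes did not use. Promoters were taken from RefSeq (GRCh38.p14), as 250 bases before and 50 bases after an annotated start, and 7 of the 10 genes had 12 such windows. CYP1B1, CSTA and CA2 had no entry in the table used. The sequences below are the 4 windows that held at least 2 copies of the dioxin response core, the letters through which AHR and its partner ARNT bind DNA, and are shown because CYP1B1 led the 10 genes. Each is printed 5′ to 3′ on the strand of the gene, with the core in capitals where it reads GCGTG or, on the other strand, CACGC.
ZIC2, chr13:99981534-99981833, plus strand: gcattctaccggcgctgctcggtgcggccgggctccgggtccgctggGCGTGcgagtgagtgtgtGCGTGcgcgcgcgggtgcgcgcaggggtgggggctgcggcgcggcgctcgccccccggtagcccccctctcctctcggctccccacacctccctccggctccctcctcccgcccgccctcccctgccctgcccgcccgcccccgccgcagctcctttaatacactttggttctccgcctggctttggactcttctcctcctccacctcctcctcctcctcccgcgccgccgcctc
RAI2, chrX:17861249-17861548, minus strand: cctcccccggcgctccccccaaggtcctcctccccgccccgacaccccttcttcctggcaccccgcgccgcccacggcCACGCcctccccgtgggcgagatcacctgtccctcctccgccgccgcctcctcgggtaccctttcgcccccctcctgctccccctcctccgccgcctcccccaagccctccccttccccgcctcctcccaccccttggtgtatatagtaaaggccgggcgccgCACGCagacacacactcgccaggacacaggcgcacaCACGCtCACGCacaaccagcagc
COXFA4L3, chr15:45430360-45430659, plus strand: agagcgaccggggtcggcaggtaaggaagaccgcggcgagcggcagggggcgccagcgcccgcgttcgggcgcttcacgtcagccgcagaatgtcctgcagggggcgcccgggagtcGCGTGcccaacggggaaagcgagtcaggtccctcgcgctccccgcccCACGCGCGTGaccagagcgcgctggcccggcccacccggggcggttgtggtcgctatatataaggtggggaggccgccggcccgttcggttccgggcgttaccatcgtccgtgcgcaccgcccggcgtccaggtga
LIPG, chr18:49561807-49562106, plus strand: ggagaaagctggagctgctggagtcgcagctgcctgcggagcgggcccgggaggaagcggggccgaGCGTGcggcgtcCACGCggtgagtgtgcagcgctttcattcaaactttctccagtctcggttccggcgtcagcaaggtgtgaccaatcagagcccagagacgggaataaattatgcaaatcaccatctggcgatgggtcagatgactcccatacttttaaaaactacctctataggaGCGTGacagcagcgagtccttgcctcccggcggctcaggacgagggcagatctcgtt

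The printed RAI2 window held 4 copies of the core, COXFA4L3 and LIPG held 3 each, and ZIC2 held 2. These windows were picked for their copies, and the share of all windows with at least 2 was not counted. Nothing is read from the copy numbers. Over all windows of the 10 genes, 6 of 12 held the core at least once, against 36.5% of 35116 RefSeq promoter windows. They belonged to 6 of the 7 genes, against 40.6% of 27305 genes with at least 1 window. RCAN2 and RTN1 had 3 windows each and RAI2 had 2, against a mean of 1.29 per gene, so these genes had more sequence in which to hold the core. The windows of the 10 genes were rich in the bases that make up the core: their median GC content was 69.0%, with a range from 44.0% in an RTN1 window to 85.3% in a RAI2 window, against a median of 58.7% over all windows. Their median number of CpG dinucleotides was 24.5 against 14. The GC box, read as GGGCGG, lay in 5 of 12 windows and in 45.0% of all windows. Also 5 of 12 windows held the cyclic AMP response motif, read as TGACG, which 24.6% of all windows had. These 5 windows belonged to 4 of the 7 genes, against 28.4% of 27305 genes. RCAN2 and RTN1, with 3 windows each, were among the 4, and windows of the same gene are not separate genes. The box CCAAT lay in 3 windows (34.6% of all), the TATA box, read as TATAAA, in 2 (11.5%) and the AP-1 site, read as TGANTCA, in 1 (7.71%). Neither the E-box, read as CACGTG (7.26%), nor the nuclear receptor motif, read as AGGTCA (13.8%), lay in any of the 12. Both strands were searched, and matches of different motifs could overlap. These matches describe letters and say nothing of binding.

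CYP1B1 and ZIC2 had the widest range. In the CYP1B1 probe set 202437_s_at, the value was -3.19 in mock, 5.52 in LhTERTL, 2.93 in mock/cre+ and -2.93 in LhTERTL/cre+. Probe set 202436_s_at stood at -2.59, 4.94, 2.28 and -2.28 in the same order, and 202435_s_at at -2.17, 4.63, 1.97 and -1.97. In each of these 3 probe sets, LhTERTL was the highest line, mock/cre+ the next, and both low lines lay close together. The fourth CYP1B1 probe set, 202434_s_at, was flat, between -0.02 and 0.02 in all 4 lines, and no probe positions were used here. As the mean of the 4 probe sets, CYP1B1 was 54.5-fold higher in LhTERTL than in mock and 12.01-fold higher in mock/cre+ than in LhTERTL/cre+, and the flat probe set lowers both folds.

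ZIC2 stood at -1.79 in mock, 3.68 in LhTERTL, 1.79 in mock/cre+ and -1.95 in LhTERTL/cre+, which is 44.3-fold between the lines without Cre and 13.4-fold, in the other direction, between the lines with Cre. RAI2, the other nuclear regulator, stood at -1.64, 2.96, 1.64 and -2.23 in the same order. For both genes LhTERTL was the highest line and LhTERTL/cre+ the lowest. That the high lines lay above the low lines follows from the choice of genes, and 16.6% of all genes (3280 of 19775) showed it.

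**Figure D1:**
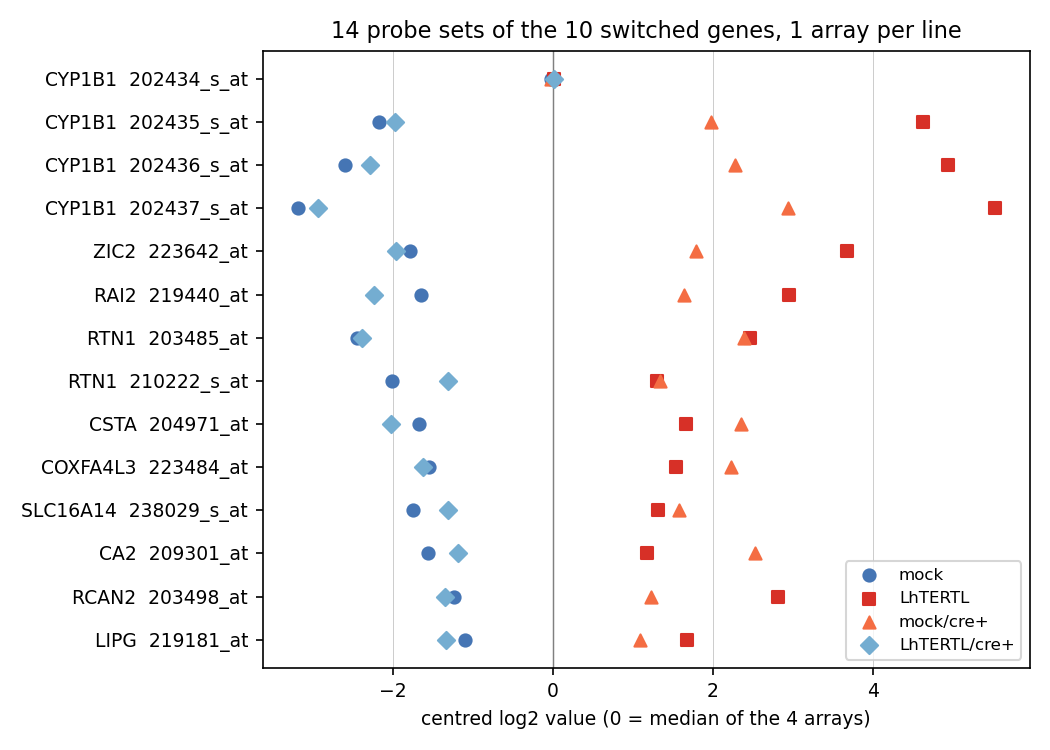
Centred log2 values (x axis, 0 is the median of the 4 arrays) of the 14 probe sets of the 10 genes (y axis, gene and probe set), with 1 point for each of the 4 lines. In 13 probe sets the LhTERTL square and the mock/cre+ triangle lie to the right of both other lines, and in the CYP1B1 probe set 202434_s_at all 4 points lie between -0.02 and 0.02.

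RTN1, the membrane-shaping protein, was the gene in which both high lines were most alike. Its probe set 203485_at stood at -2.44 in mock, 2.47 in LhTERTL, 2.39 in mock/cre+ and -2.39 in LhTERTL/cre+, and 210222_s_at stood at -2.005, 1.30, 1.34 and -1.30. The 2 probe sets gave the same order of high over low lines with different sizes. The 2 low lines were 0.05 apart in the first and 0.70 apart in the second.

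In CSTA, COXFA4L3, CA2 and SLC16A14, unlike the gene means above, mock/cre+ and not LhTERTL was the highest line. The protease inhibitor CSTA stood at -1.67 in mock, 1.67 in LhTERTL, 2.35 in mock/cre+ and -2.02 in LhTERTL/cre+. The mitochondrial COXFA4L3 stood at -1.54, 1.54, 2.22 and -1.62 in the same order. CA2 stood at -1.55, 1.18, 2.52 and -1.18, and so had the largest lead of mock/cre+ over LhTERTL, at 1.34. For the transporter SLC16A14 the 4 values were -1.74, 1.31, 1.58 and -1.31. In these 4 genes the fold was 6.66 to 10.1 between LhTERTL and mock and 7.42 to 20.7 between mock/cre+ and LhTERTL/cre+.

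RCAN2 and LIPG were highest in LhTERTL again. The calcineurin regulator RCAN2 stood at -1.23 in mock, 2.82 in LhTERTL, 1.23 in mock/cre+ and -1.34 in LhTERTL/cre+, a 16.5-fold difference without Cre and a 5.94-fold opposite difference with Cre. The lipase LIPG stood at -1.09, 1.68, 1.09 and -1.34 in the same order, or 6.83-fold and 5.38-fold. LIPG had the smallest gap of the 10 genes, the gap being the lower of the high lines minus the higher of the low lines, at 2.18 on the log2 scale.

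All 10 genes were at least 2-fold apart in opposite directions in both Cre-matched pairs, a pattern shown by 0.602% of all genes (119 of 19775). Among probe sets, 13 of the 14 did so, against 0.590% of all probe sets (322 of 54613), and the exception was the flat CYP1B1 probe set. The mirrored pattern, low in LhTERTL and mock/cre+, was shown by 0.0607% of all genes (12 of 19775). Both high lines lay at least 2-fold above both low lines in 0.460% of all genes (91 of 19775). These shares are background to a choice made on the same values, and nothing is read from the count. The rule gave no threshold. Ranked by the gap, the 10 genes all fell within the first 12, beside LINC00992 at 2.59 and NME5 at 2.32, and the next gene after LIPG was EYA2 at 2.13.

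**Figure D2:**
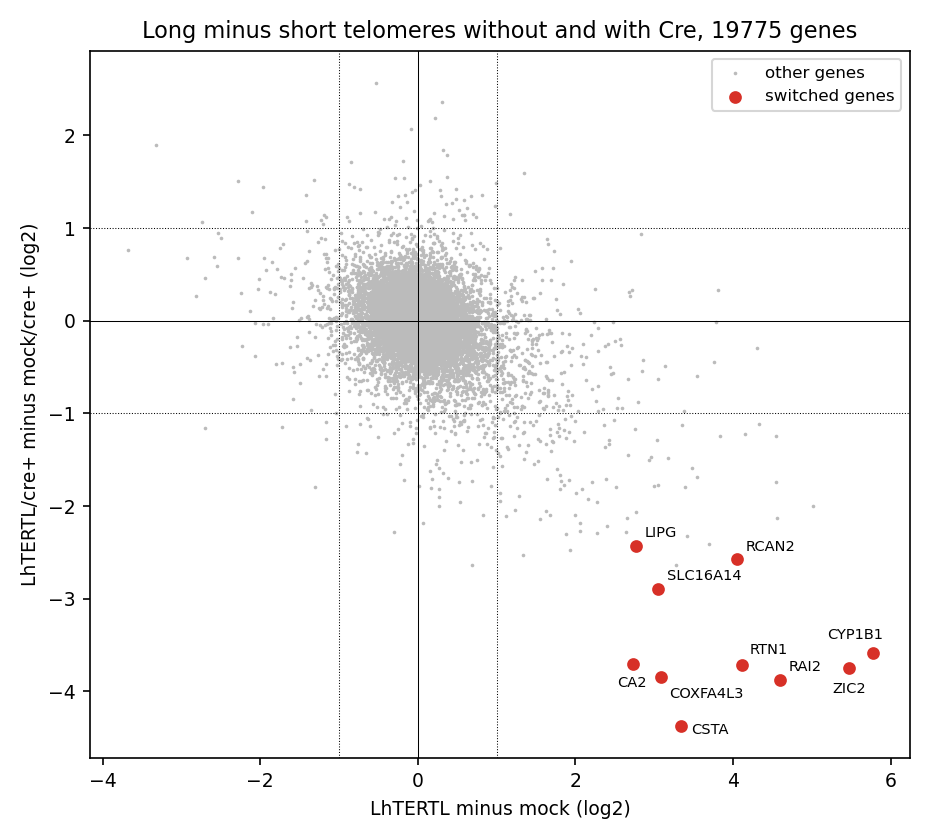
LhTERTL minus mock (x axis, log2) against LhTERTL/cre+ minus mock/cre+ (y axis, log2) for 19775 genes, each a grey point, with the 10 switched genes in red and dotted lines at 2-fold. The red points lie at 2.74 to 5.77 on the x axis and at -4.37 to -2.43 on the y axis, in the lower right.

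The same values can be read as the difference that follows Cre at each telomere length. From mock to mock/cre+ the 10 genes were higher by 2.18 (LIPG) to 4.09 (RTN1), with a median of 3.67. From LhTERTL to LhTERTL/cre+ they were lower, with differences of -5.63 (ZIC2) to -2.36 (CA2) and a median of -3.71. These differences reuse the arrays of the pairs above and add no independent measurement.

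The low lines and the high lines were also set against each other. LhTERTL/cre+ minus mock ran from -0.59 for RAI2 to 0.43 for SLC16A14, with a median of -0.10 and 4 of 10 genes above 0. None of the 10 was 2-fold apart, and 0.435% of all genes (86 of 19775) were. LhTERTL minus mock/cre+ ran from -1.34 for CA2 to 1.98 for CYP1B1, and 5 of the 10 genes were at least 2-fold apart, against 4.10% of all genes (810 of 19775). The choice of genes used all 4 lines, so nothing is read from these counts. Of these 5, CYP1B1, ZIC2, RCAN2 and RAI2 were higher in LhTERTL, by 1.98, 1.89, 1.59 and 1.32, and CA2 was higher in mock/cre+. Over all genes the SD of LhTERTL/cre+ minus mock was 0.237 and that of LhTERTL minus mock/cre+ was 0.443.

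**Figure D3:**
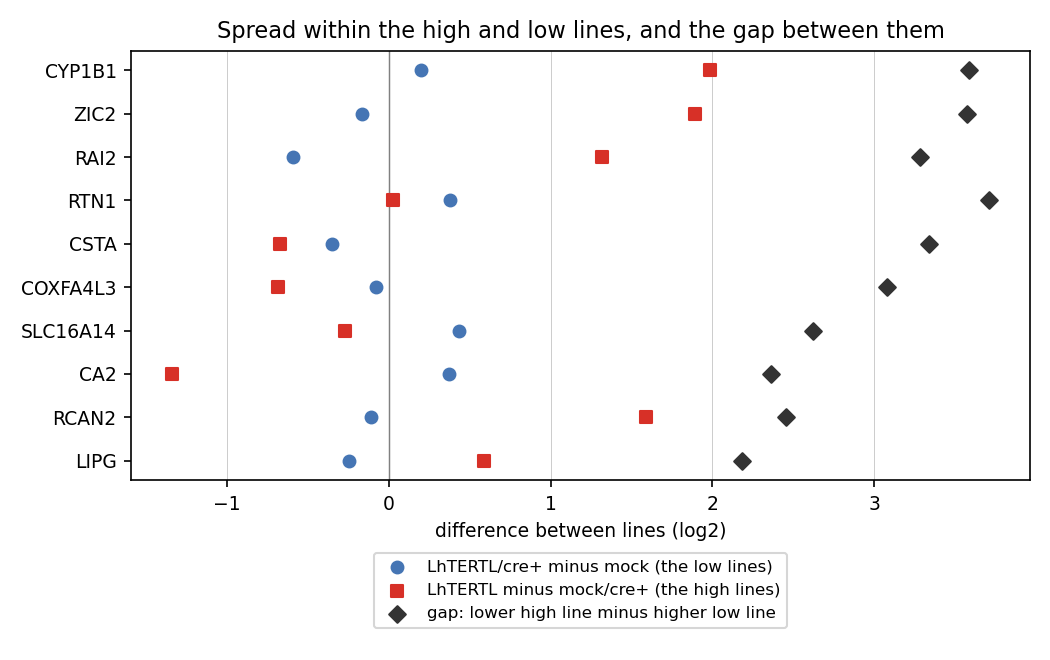
Differences between lines (x axis, log2) for each of the 10 genes (y axis): LhTERTL/cre+ minus mock as circles, LhTERTL minus mock/cre+ as squares, and the gap between the high and low lines as diamonds. Circles lie between -0.59 and 0.43, squares between -1.34 and 1.98, and diamonds between 2.18 and 3.71.

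Telomere length is the comparison the series was built for, and it was tested over all probe sets with the long lines LhTERTL and LhTERTL/cre+ against the short lines mock and mock/cre+. The mean long minus short difference was 1.09 for CYP1B1, 0.86 for ZIC2 and 0.74 for RCAN2, and -0.51 for CSTA, -0.48 for CA2 and -0.38 for COXFA4L3. The other 4 genes stood between 0.08 and 0.36. None of the 14 probe sets passed the test (limma, two-sided, Benjamini-Hochberg adjusted p = 1 for each, smallest unadjusted p = 0.621 among them), and 0 of 54613 probe sets did (0%), with 695 of all and 0 of the 14 at an unadjusted p under 0.05. The standard error of the 13 moving probe sets was 1.28 to 3.59, since the 2 lines of each telomere group lay on opposite sides for these genes. That error is made of the contrast that chose them, so the test is not independent of their choice.

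The sign of these differences with an array left out depends on the choice of genes and on the differences within the high and low lines. The values are given for their size. Without LhTERTL the long minus short difference was -2.36 to -1.23 over the 10 genes, and without mock/cre+ it was 1.26 to 2.99. It was -2.52 to -0.49 without mock and 0.70 to 3.88 without LhTERTL/cre+. Averaged over both telomere lengths, the lines with Cre minus those without ran from -1.03 (ZIC2) to 0.86 (CA2), with 5 of 10 genes above 0. This difference was not tested.

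Relatives and partners of the 10 genes were read from lists of genes with known links to each, with the mean of the high lines minus the mean of the low lines as the measure. For the 10 genes themselves it was 2.60 (LIPG) to 4.68 (CYP1B1), and over all genes its median was -0.02. Each of the lists had a median between -0.07 and 0.15. Such a difference of means can come from a single line, so it does not show that both high lines lay on the same side. Of the 417 probe sets on these lists and the cell type marker lists, 0 passed the long against short test (limma), and 5 had an unadjusted p under 0.05. Over all probe sets 695 of 54613 had such a p in the same test (limma), and nothing is read from the 5.

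The AHR list, with 11 of 12 genes measured, had a median of 0.07 and 0 genes 2-fold apart in opposite directions. Its leading member was ARNT2, a partner of AHR-type factors, at -0.23 in mock, 0.91 in LhTERTL, 0.23 in mock/cre+ and -0.74 in LhTERTL/cre+. The antioxidant enzymes NQO1 and ALDH3A1 had differences of 0.68 and 0.63 and were high in LhTERTL alone, at 1.10 and 1.32, with mock/cre+ at 0.06 and -0.22. CYP1A1, the closest functional relative of CYP1B1 among AHR targets and named here after its values were seen, stood at -0.26, 0.12, -0.12 and 0.16 in the order mock, LhTERTL, mock/cre+ and LhTERTL/cre+.

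Among the zinc finger factors, 9 of 10 measured, the median was 0.01. GLI3, a transcription factor of hedgehog signalling, had a difference of -0.52, GLIS3 0.38 and GLIS1 -0.32. GLI3 and GLIS1 were lowest in LhTERTL, at -1.25 and -0.77, with mock/cre+ at 0.31 and 0.19. GLIS3 was highest in mock/cre+, at 1.08, with LhTERTL at -0.39. Retinoid genes, 21 of 23 measured, had a median of 0.06 and 1 gene at least 2-fold apart in opposite directions, ALDH1A1, which makes retinoic acid. ALDH1A1 stood at -0.53 in mock, 4.02 in LhTERTL, 0.53 in mock/cre+ and -0.72 in LhTERTL/cre+. RBP4, a carrier of retinol, had a difference of -1.07, CRABP2, which carries retinoic acid in the cell, 1.05 and RARRES1 0.95. For CRABP2 the highest line was mock/cre+ at 1.10.

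The reticulon and membrane-shaping list, 12 of 14 measured, had a median of 0.07. ATL1, a GTPase that fuses endoplasmic reticulum tubules, was its 1 gene at least 2-fold apart in opposite directions, at -1.11 in mock, 0.15 in LhTERTL, 1.005 in mock/cre+ and -0.15 in LhTERTL/cre+. REEP1 and RTN2 had differences of 0.46 and 0.43. Cystatins and cathepsins, 16 of 16 measured, had a median of -0.07, with the protease CTSH at 0.80, CTSC at -0.74 and the inhibitor CST3 at 0.71. Cornified envelope genes, 13 of 14 measured, had a median of -0.04. PI3, the elastase inhibitor elafin, had a difference of -1.54 and was highest in mock at 1.32, and PPL and KRT10 stood at -0.47 and 0.34.

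Cytochrome c oxidase subunits, 15 of 16 measured, had a median of 0.01, with COX7B at -0.40 and COX8A at -0.23. COXFA4, the subunit related to COXFA4L3, stood at -0.29 in mock, 0.15 in LhTERTL, 0.10 in mock/cre+ and -0.10 in LhTERTL/cre+, a difference of 0.32. Monocarboxylate transporters and their chaperones, 8 of 15 measured, had a median of 0.15, with SLC16A10 at 0.41, SLC16A7 at 0.39 and SLC16A5 at 0.31. Carbonic anhydrases and bicarbonate or proton carriers, 15 of 17 measured, had a median of 0.03, with the carriers SLC4A7 at -0.66 and SLC4A4 at 0.47 and the anhydrase CA1 at 0.44.

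Calcineurin and NFAT genes, 14 of 14 measured, had a median of 0.05. RCAN1, the paralog of RCAN2, had a difference of 0.35, with LhTERTL at 0.65 and the other lines between -0.05 and -0.03. NFATC3 stood at 0.24 and AKAP5 at -0.23. Lipases and their regulators, 14 of 16 measured, had a median of 0.03. PLA1A, a phosphatidylserine phospholipase, had a difference of 1.12 from LhTERTL alone, at 1.93, with mock/cre+ at 0.01. LIPH stood at -0.41 and GPIHBP1, which anchors lipoprotein lipase, at -0.24. Housekeeping genes, 12 of 14 measured, had a median of -0.04, led by SDHA at -0.52.

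**Figure D4:**
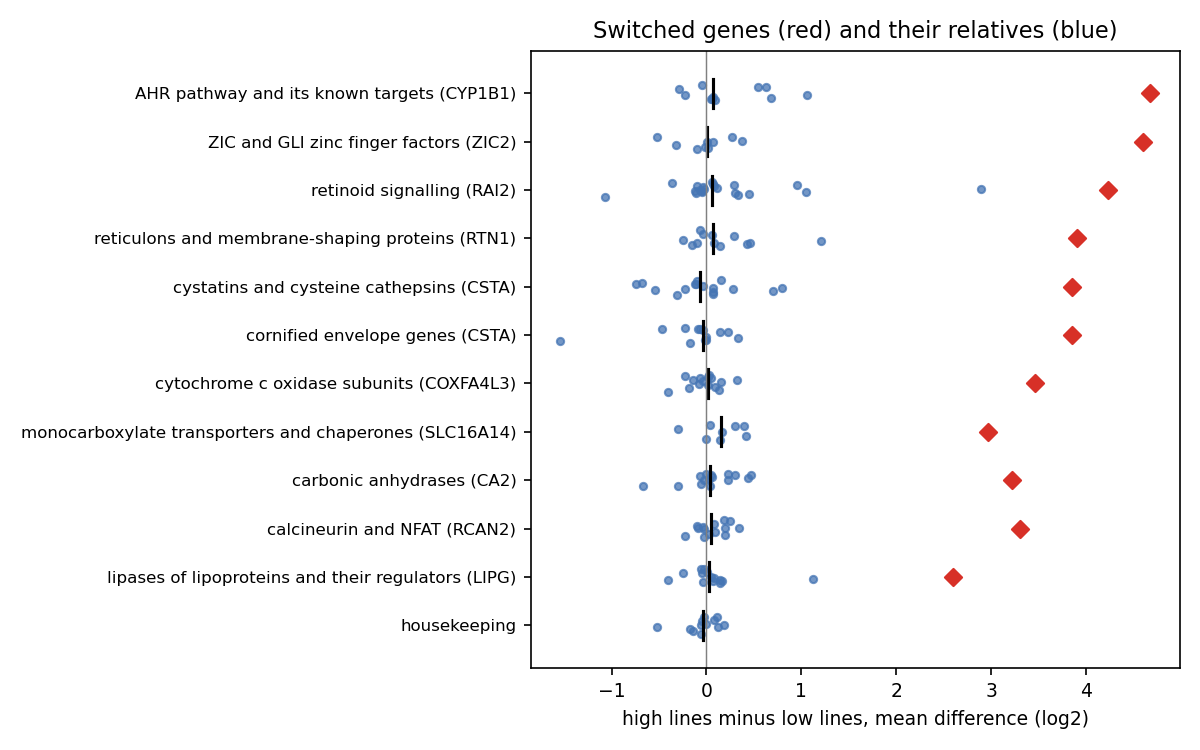
Mean of LhTERTL and mock/cre+ minus mean of mock and LhTERTL/cre+ (x axis, log2) for each measured gene of 12 lists (y axis), with list members in blue, the list median as a black bar and the switched gene that the list relates to in red. Red diamonds lie at 2.60 to 4.68, and list medians between -0.07 and 0.15.

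Position on the chromosome was the other feature the choice did not use. The 10 genes lie on 9 chromosomes. In RefSeq's gene order, the nearest 2 measured genes on each side of them gave 40 neighbours. Of these, 0 were 2-fold apart in opposite directions, against 0.602% of all genes (119 of 19775), so nothing is read from the 0. The high lines lay above the low lines by any amount in 13 of the 40, or 32.5%, against 16.6% of all genes (3280 of 19775). The gaps of the 13 ran from 0.006 (CYP1B1-AS1) to 0.49 (SCML1). Neighbours of the same gene are not independent of each other, and the 2 shares were not tested. The neighbours' median high minus low difference was 0.06, with a range from -0.42 (LINC01883) to 1.21. The upper end was CYP39A1, an oxysterol hydroxylase near RCAN2, at -0.62 in mock, 1.33 in LhTERTL, 0.18 in mock/cre+ and -0.30 in LhTERTL/cre+. ZIC5, which lies beside ZIC2 and is of its family, had a difference of -0.02, CYP1B1-AS1, annotated as antisense to CYP1B1, of 0.05, and CA3, beside CA2, of -0.01.

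The 10 other genes nearest to the median profile of the switched genes, by Euclidean distance over the 4 arrays, were LINC00992, NME5, EYA2, NELL2, SP8, IGDCC4, ZNF521, PPM1E, PRKAR2B and ADGRL2. That median profile was -1.66 in mock, 1.78 in LhTERTL, 1.79 in mock/cre+ and -1.71 in LhTERTL/cre+. The nearest gene, the long non-coding RNA LINC00992, lay at a distance of 0.85, with -1.99, 1.29, 1.34 and -1.29 in the same order. NME5, of the nucleoside diphosphate kinase family, lay at 0.88 and EYA2, a transcriptional co-activator with phosphatase activity, at 1.15. The furthest was ADGRL2, an adhesion receptor, at 1.37. The switched genes themselves lay between 0.52 (COXFA4L3) and 2.02 (CYP1B1) from that profile. This likeness over 4 arrays is a description of these arrays.

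**Figure D5:**
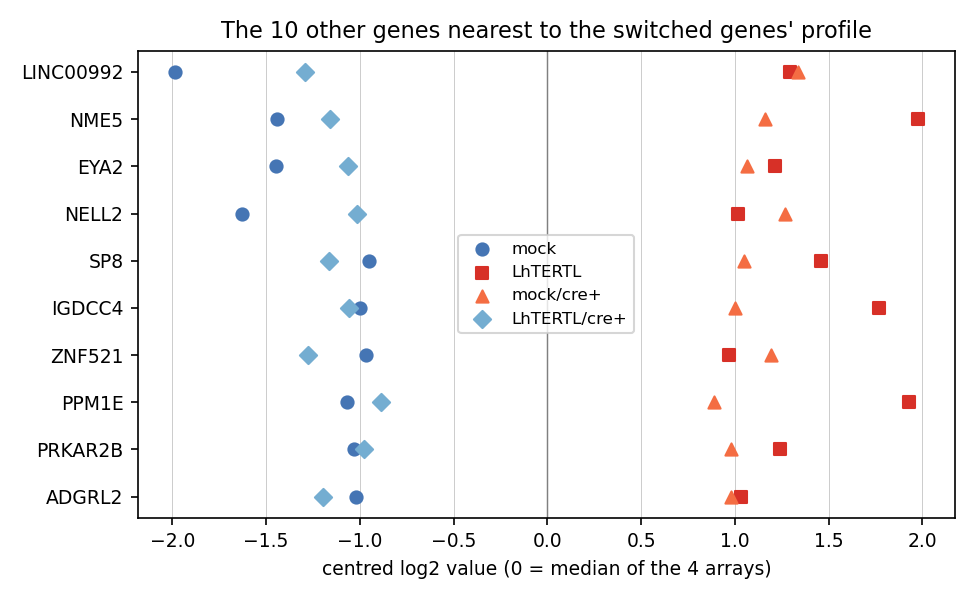
Centred log2 values (x axis) of the 10 genes nearest to the switched genes' median profile (y axis), with 1 point for each of the 4 lines. In each gene both high lines lie to the right of both low lines, and the nearest gene, LINC00992, stands at 1.29 and 1.34 against -1.99 and -1.29.

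Markers of other cell types were read for the same contrast. Leukocyte markers, 5 of 6 measured, had a median high minus low difference of -0.10, endothelial markers, 5 measured, -0.03, fibroblast markers, 6 measured, 0.03, and keratinocyte differentiation markers, 5 measured, -0.01. Epithelial markers, 6 measured, had a median of 0.23, with CLDN7, a tight junction claudin, at 1.19, CDH1 (E-cadherin) at 0.85 and EPCAM at 0.61, while the keratins KRT8, KRT18 and KRT19 stood at -0.28, -0.16 and -0.40. The mean of the 6 was 0.52 in LhTERTL, against -0.16 to -0.02 elsewhere. CLDN7, CDH1 and EPCAM were highest in LhTERTL, at 2.08, 0.94 and 0.47, with mock/cre+ at -0.17, 0.02 and 0.04. The 6 neural markers had a median of -0.09. Among them MAP2, a microtubule protein of neurons, was at least 2-fold apart in opposite directions, at -0.53 in mock, 3.62 in LhTERTL, 0.53 in mock/cre+ and -0.69 in LhTERTL/cre+. SOX2 had a difference of 0.47, and ZIC1, TUBB3, ENO2 and SYP of -0.10, -0.23, -0.22 and -0.08. Because the values are centred, levels of these markers are unknown, and the part of other cells in the results was not tested.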

How the data were processed

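Per the submitters' processing notes, RMA gave the log2 values that the authors deposited; the program's version is not known here. The median of a row over the 4 arrays was 0 within 1e-05 for 100% of 54675 probe sets, so rows had been centred. After removal of 62 Affymetrix controls, 54613 probe sets remained: 41091 had 1 symbol in the platform annotation (19775 genes, each the mean of its probe sets), 1801 several and 11721 none. Symbols came from that annotation, with older names of COXFA4L3 read as that symbol. Gene order and promoters came from RefSeq (GRCh38.p14).

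Long and short lines, grouped by the labels' telomere length, were compared per probe set by limma 3.58.1 (lmFit, eBayes; R 4.3.3), Benjamini-Hochberg adjusted at 0.05, and tested on simulated data. Other values are differences between single arrays, whose number limits the precision. With 2 against 2 arrays an exact permutation test cannot go below p = 0.333 (two-sided). The labels give no replicate numbers.

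Members and lists were chosen with earlier results of these data known. Named genes are TERT, the 10 members, the 10 nearest genes and, in each list, genes at least 2-fold apart in opposite directions and up to 3 further genes of largest difference, and neighbours by position. The authors' lists of 124 and 129 probe sets hold 0 member probe sets and were used only to check column labels. Python 3.11.15, numpy 2.4.6 and pandas 2.3.3 were used.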

Additional observations from a re-analysis of the deposited data

Results flagged for a closer look

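For each of the 10 genes the long minus short difference went one way without Cre and the opposite way with Cre, which is the pattern they were chosen for, and the difference between the pairs was not tested. LhTERTL minus mock exceeded LhTERTL/cre+ minus mock/cre+, on the log2 scale, by 9.36 for CYP1B1, 9.21 for ZIC2, 8.47 for RAI2, 7.82 for RTN1 and 7.71 for CSTA. It did so by 6.93 for COXFA4L3, 6.62 for RCAN2, 6.44 for CA2, 5.94 for SLC16A14 and 5.20 for LIPG.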

How the results depend on the processing

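The 10 genes stayed at least 2-fold apart in opposite directions with each array's median set to 0, after quantile normalization of the 4 arrays, with the probe set of largest SD per gene, and at 1.5-fold and 4-fold. Without probe sets whose names end in _x_at, _s_at or _a_at, CYP1B1 and SLC16A14 had none left, and the count was 8 of 8. The genes were chosen for this pattern in the same values, so these counts are a description and nothing is read from them. Over all probe sets 847 were apart at 1.5-fold and 63 at 4-fold, against 322 at 2-fold. With median centring there were 333 and with quantile normalization of the centred values 324. The median high minus low difference of the 10 genes was 3.45 after quantile normalization against 3.66. CYP1B1 stood at 7.29 in its probe set of largest SD against 4.68 as a mean.

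The long against short test called 0 probe sets with a variance trend, with robust eBayes, with Cre status as a block and without any single array, with 519 to 3167 at an unadjusted p under 0.05 (limma). Without single arrays the long minus short difference ran from -1.69 to 3.88 for CYP1B1, from -1.95 to 3.68 for ZIC2, from -2.23 to 2.96 for RAI2, from -1.84 to 2.24 for RTN1 and from -2.52 to 1.49 for CSTA. It ran from -2.26 to 1.501 for COXFA4L3, from -1.58 to 1.74 for SLC16A14, from -2.52 to 1.55 for CA2, from -1.34 to 2.82 for RCAN2 and from -1.34 to 1.68 for LIPG. Cre status is the pairing that the labels give, and with it as a block 1038 probe sets had an unadjusted p under 0.05 (limma). The filter on mean log2 values was not run, since centred values hold no levels. Of the 10 nearest genes, 7 were also nearest after quantile normalization.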

Other observations

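Beyond the genes named in the report, those with the next largest gaps between high and low lines were read, chosen after their values were seen. BEX4, of a family of small brain-expressed proteins, stood at -1.51 in mock, 3.05 in LhTERTL, 1.06 in mock/cre+ and -1.06 in LhTERTL/cre+. SLFN11, a nuclear protein that blocks stressed replication forks, stood at -0.88, 2.50, 0.88 and -0.91 in the same order. The Wnt receptor FZD7 stood at -1.01, 1.15, 0.96 and -0.96, and LCP1, an actin-bundling protein, at -0.91, 1.10, 0.91 and -0.95. ANKRD22 was higher in mock/cre+, at 1.42, than in LhTERTL, at 0.88. For these genes, which were ranked by the same values, no test was run.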
